A study of Caenorhabditis elegans with 32 samples.

Results

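The cytochrome P450 (cyp) and UDP-glucuronosyltransferase (ugt) genes of Caenorhabditis elegans were described by their transcripts in RNA of whole worms and in RNA precipitated with ribosomes and labelled muscle. Members were all rows of the deposited gene table whose WormBase symbol begins with cyp- or ugt- followed by a number and whose counts summed to at least 100 over the 8 libraries of total RNA. The rule kept 110 of 141 such symbols, 52 of 74 cyp and 58 of 67 ugt, in a table of 46748 rows. Of the 31 left out, 22 cyp and 9 ugt, 3 cyp had no count in total RNA. Just inside the minimum were ugt-18 with a sum of 104 counts, ugt-36 with 106 and cyp-35B1 with 110, and just outside it were cyp-33C6 with 97, cyp-35A4 with 95 and cyp-33D1 with 94.

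All 16 libraries were from the strain WBM1339, which carries FLAG-tagged ribosomal subunits. The worms came from eggs of parents kept on OP50 bacteria, were placed as L1 larvae on control RNAi or on RNAi against dimt-1, the 18S rRNA methyltransferase gene, and were collected as young adults. For each RNAi there were 4 libraries of RNA precipitated with the ribosomes (translating ribosome affinity purification, TRAP, labelled muscle) and 4 of total RNA from the whole worm, labelled as biological replicates 1 to 4. Whether libraries of the same number came from the same worms was not given in the sources used here. The promoter that drives the tag was not given in the sources used here, and the libraries of the germline experiment were not analysed here.

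Cytochrome P450 enzymes are heme proteins of the endoplasmic reticulum, and in a few cases of mitochondria, that insert an oxygen atom into lipids, steroids and foreign compounds, with electrons passed on by the reductase EMB-8 or by cytochrome b5. UDP-glucuronosyltransferases then join a sugar, in nematodes often glucose, to such products so that they can be exported. In worms many members of both families are expressed in the intestine and are induced by drugs and toxins, while some P450 enzymes make signalling lipids or parts of the eggshell.

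The total count was 34794250 to 49782576 per library. The targeted gene, E02H1.1 (dimt-1), had 37.3 to 41.7 CPM (counts per 1e6 counts of the library, scaled by TMM within the libraries of one fraction) in the total RNA of the 4 control libraries, 25.9, 28.3 and 32.0 in replicates 4, 1 and 2 of dimt-1 RNAi, and 39.2 in replicate 3. The total RNA library labelled dimt-1 RNAi replicate 3 was therefore within the control range for the gene the RNAi targets. The main results for total RNA are given with and without it, and some are given only without it, as stated there. In TRAP, E02H1.1 stood at 6.58 to 14.4 CPM on control RNAi and 9.84 to 20.4 CPM on dimt-1 RNAi, and the groups overlapped. All 10 muscle markers fixed for the check, among them myo-3 and unc-54, were higher in TRAP than in total RNA under both RNAi treatments, and their summed level was 78280 to 97670 CPM in TRAP against 5668 to 6421 CPM in total RNA on control RNAi.

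The TRAP libraries differed in how many members they recorded at all. In total RNA 0 to 5 of the 110 members had no count in a library. The members were chosen by their counts in total RNA, which favours few zeros there, while no count was required in TRAP. In TRAP on control RNAi 47, 57, 43 and 40 members had none, and in TRAP on dimt-1 RNAi 7, 13, 49 and 13 had none, the 49 again in replicate 3. These 5 sparse libraries held few small counts over all genes, 204 to 535 genes with 1 to 20 counts each, against 3248 to 3674 in the other 3 TRAP libraries. Among members with counts, the median count was 110 to 126 in the 5 sparse libraries and 56 to 60 in the other 3, so that the low counts seen elsewhere were mostly missing there. A value of 0 in these libraries is therefore given as a count and is not turned into a fold. Over the 4 control TRAP libraries 18 members had no count in any library and 33 had counts in all 4.

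**Figure D1:**
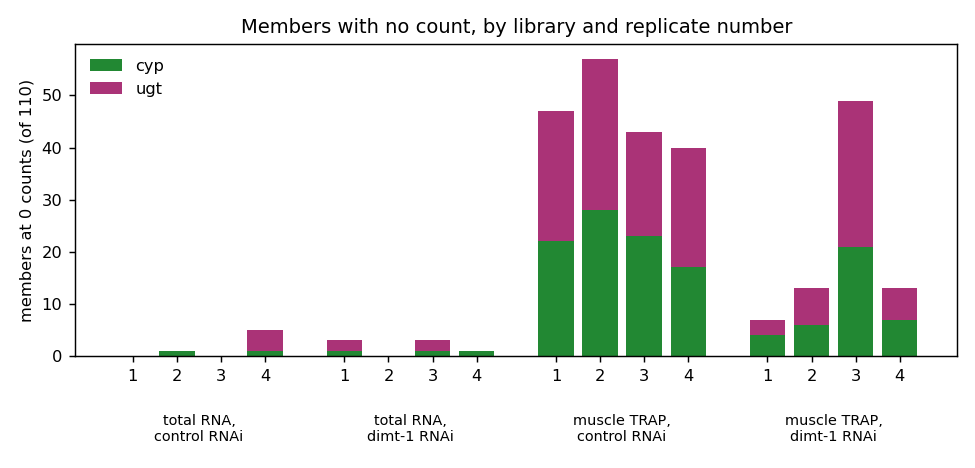
Number of the 110 members with 0 counts (vertical axis) in each of the 16 libraries, ordered by group and replicate number, with cyp in green and ugt in purple. The 4 control TRAP libraries and TRAP replicate 3 of dimt-1 RNAi each had 40 to 57 members at 0, and every other library had at most 13. The members were chosen by their counts in total RNA, which favours few zeros in those libraries.

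The genomic arrangement of the families bears on how their counts can be read. Of the 52 cyp members 27 lie on chromosome V, 7 on chromosome II, 6 each on chromosomes IV and X and 5 on chromosome III. Of the 58 ugt members 34 lie on chromosome V and 12 on chromosome IV. Within 10 kb of another gene of the same family lie 27 cyp and 28 ugt members, in runs such as ugt-12 to ugt-13 and cyp-35A5 to cyp-34A9. Neighbouring copies can share reads: of all stretches of 100 bases within an exon, 30.7% of those of cyp-25A1, 33.5% of cyp-25A2, 36.8% of cyp-25A3 and 23% of cyp-25A4 occur more than once in the genome. Of those of cyp-25A1, 26.1% occur in cyp-25A2, and of those of cyp-25A3, 4.9% occur in cyp-25A4. The values of these 4 genes are uncertain to that extent. No such stretch was shared with another member for cyp-31A2, cyp-31A3 or cyp-31A5.

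The 250 bases upstream of the annotated start are shown for the members on which the results below turn, with the strand of the gene read 5′ to 3′. The first 6 are members whose total RNA levels separated 3 dimt-1 RNAi libraries from the controls, among them the 3 neighbours cyp-25A1, cyp-25A2 and cyp-25A3. The last are cyp-31A2 and cyp-31A3, the eggshell P450 genes with high levels. They were chosen after their values were seen. Capitals mark TGATAA or its reverse complement TTATCA, the core bound by intestinal GATA factors such as ELT-2. Sequences are from the RefSeq WBcel235 genome with gene starts from the Ensembl annotation of that build.
cyp-25A1: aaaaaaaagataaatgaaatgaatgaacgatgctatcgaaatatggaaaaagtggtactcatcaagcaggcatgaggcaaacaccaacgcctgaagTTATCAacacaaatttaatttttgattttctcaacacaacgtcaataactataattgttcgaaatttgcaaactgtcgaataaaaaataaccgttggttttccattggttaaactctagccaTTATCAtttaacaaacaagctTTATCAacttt
cyp-25A2: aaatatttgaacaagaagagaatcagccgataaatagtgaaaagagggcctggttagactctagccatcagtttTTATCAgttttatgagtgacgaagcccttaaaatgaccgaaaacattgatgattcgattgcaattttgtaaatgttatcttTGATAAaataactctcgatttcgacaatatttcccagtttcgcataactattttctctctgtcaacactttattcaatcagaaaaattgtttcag
cyp-25A3: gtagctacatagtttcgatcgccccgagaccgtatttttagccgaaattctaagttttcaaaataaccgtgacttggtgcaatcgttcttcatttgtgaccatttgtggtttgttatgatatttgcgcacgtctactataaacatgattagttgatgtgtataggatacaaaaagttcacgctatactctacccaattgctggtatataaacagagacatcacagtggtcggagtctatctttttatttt
cyp-35A2: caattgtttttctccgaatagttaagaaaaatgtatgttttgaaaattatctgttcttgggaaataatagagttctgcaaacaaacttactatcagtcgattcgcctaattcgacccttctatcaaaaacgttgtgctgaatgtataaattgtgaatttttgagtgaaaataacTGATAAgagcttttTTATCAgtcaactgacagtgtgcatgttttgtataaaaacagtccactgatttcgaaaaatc
ugt-62: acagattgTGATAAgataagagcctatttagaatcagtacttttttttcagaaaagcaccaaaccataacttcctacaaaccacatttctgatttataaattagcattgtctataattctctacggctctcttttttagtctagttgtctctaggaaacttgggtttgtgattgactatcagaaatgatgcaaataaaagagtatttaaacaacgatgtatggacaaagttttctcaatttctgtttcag
ugt-66: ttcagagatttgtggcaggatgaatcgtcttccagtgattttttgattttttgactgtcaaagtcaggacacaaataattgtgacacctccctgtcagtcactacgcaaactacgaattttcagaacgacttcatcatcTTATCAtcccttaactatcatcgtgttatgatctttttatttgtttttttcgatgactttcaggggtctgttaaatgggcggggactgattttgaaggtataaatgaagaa
cyp-31A2: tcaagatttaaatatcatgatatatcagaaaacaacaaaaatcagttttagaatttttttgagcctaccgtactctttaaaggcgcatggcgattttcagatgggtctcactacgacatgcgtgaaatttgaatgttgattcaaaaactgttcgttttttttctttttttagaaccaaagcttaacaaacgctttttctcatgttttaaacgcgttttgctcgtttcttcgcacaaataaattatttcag
cyp-31A3: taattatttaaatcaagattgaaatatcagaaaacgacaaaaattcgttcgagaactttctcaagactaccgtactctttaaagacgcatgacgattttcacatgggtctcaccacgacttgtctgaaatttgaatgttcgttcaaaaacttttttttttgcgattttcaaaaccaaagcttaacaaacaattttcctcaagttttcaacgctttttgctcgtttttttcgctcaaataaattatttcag

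The windows are cyp-25A1 at chrIII:3832341-3832590 (plus strand), cyp-25A2 at chrIII:3834971-3835220 (plus), cyp-25A3 at chrIII:3839736-3839985 (minus), cyp-35A2 at chrV:7364183-7364432 (minus), ugt-62 at chrIII:4540624-4540873 (minus), ugt-66 at chrIII:6194581-6194830 (minus), cyp-31A2 at chrIV:11403711-11403960 (plus) and cyp-31A3 at chrIV:4760799-4761048 (plus). The window of cyp-25A1 held 3 matches, those of cyp-25A2 and cyp-35A2 held 2 each, those of ugt-62 and ugt-66 held 1 each, and those of cyp-25A3, cyp-31A2 and cyp-31A3 held none. Over both strands, TGATAA was found in 26.8% of the windows of 19973 protein-coding genes, in 38.5% of the cyp windows (20 of 52) and in 62.1% of the ugt windows (36 of 58). The forkhead letters GTAAACA were found in 4.4%, 5.8% and 3.4%. The windows of cyp-31A2 and cyp-31A3, which lie far apart on chromosome IV, were identical at 82.6% of 253 aligned positions, while those of the neighbours cyp-25A1 and cyp-25A2 were identical at 49.8% of 261. A match describes the letters only.

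In total RNA on control RNAi the P450 family was led by the eggshell genes. Per kilobase of exon, cyp-31A2 stood at 52.1 ± 1.88 CPM (SD, n = 4), cyp-31A5 at 38.2 ± 2.31 and cyp-31A3 at 36.1 ± 0.592. CYP-31A2 and CYP-31A3 act redundantly with EMB-8 in making the lipid layer of the eggshell. The other cyp at this level was cyp-44A1, which encodes a mitochondrial P450, at 42.4 ± 3.18 CPM per kilobase. The levels of cyp-31A3 and cyp-31A5 were within their spread of each other, as were those of cyp-31A5 and cyp-44A1. The next members were far lower, with cyp-35A2, a xenobiotic-inducible gene also linked to fat storage, at 15.1 ± 1.46 and cyp-37A1 at 11.2 ± 0.835. The median cyp member had 2.12 CPM per kilobase and the lowest, cyp-29A4, 0.194.

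The ugt family was less uneven. Its highest member, ugt-44, stood at 27 ± 3.21 CPM per kilobase (SD, n = 4) and was within the spread of ugt-47 at 25.9 ± 1.70, followed by ugt-64 at 21.96 ± 3.27, ugt-62 at 18.6 ± 1.79, ugt-12 at 16.8 ± 2.98 and ugt-63 at 14.03 ± 1.16. The order from ugt-64 to ugt-12 did not exceed the spread between libraries, and ugt-22, which influences the response to albendazole, was next at 13.9 ± 0.714. The median ugt member had 2.94 CPM per kilobase. The 6 members with the most counts took 59.5% of the summed cyp CPM and 39.1% of the summed ugt CPM.

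**Figure D2:**
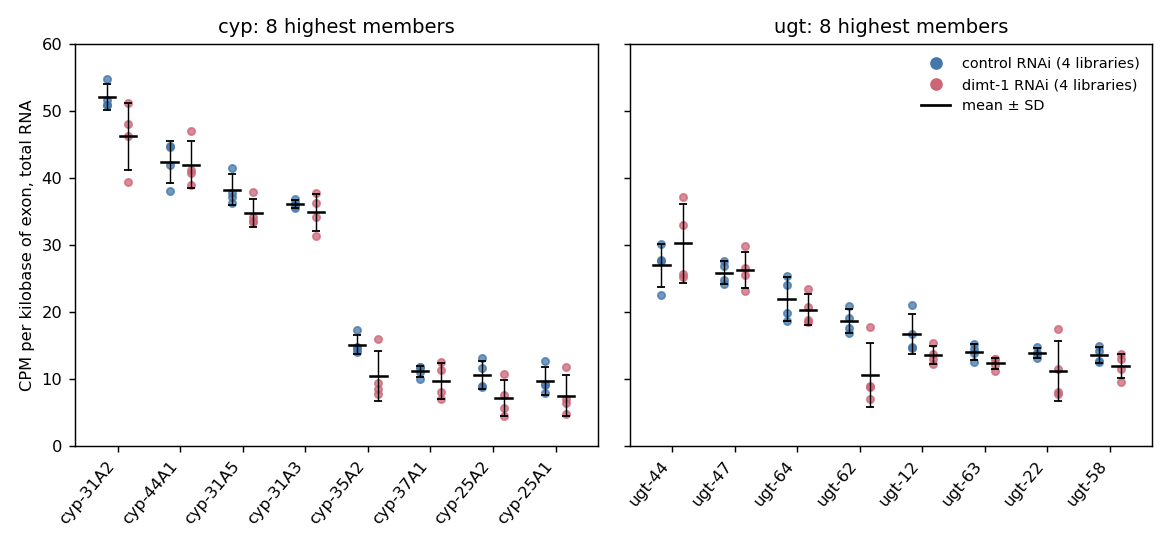
Level in total RNA (vertical axis, CPM per kilobase of exon) of the 8 highest cyp members (left) and ugt members (right) in single libraries of control RNAi (blue) and dimt-1 RNAi (red), with mean and SD over 4 libraries as black bars. The 3 cyp-31A genes and cyp-44A1, with control means of 36.1 to 52.1, stand apart from the next cyp at 15.1, and for ugt-62 a single red point lies among the blue ones.

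Summed over members, cyp transcripts had 502.8 to 525.0 CPM in the 4 control libraries of total RNA and 431.3, 416.3, 513.0 and 463.4 CPM in dimt-1 RNAi replicates 1 to 4. The sum was thus below every control in 3 of the 4 dimt-1 libraries, and within the control range in the library labelled replicate 3. The ugt sum was 551.8 to 582.2 CPM on control RNAi and 527.3, 477.2, 573.5 and 562.8 CPM on dimt-1 RNAi, and the groups overlapped. The 3 cyp-31A genes together made up 37.9 to 39.4% of the cyp sum on control RNAi and 38.4 to 41.0% on dimt-1 RNAi. The ratio of the ugt sum to the cyp sum was 1.05 to 1.15 on control RNAi and 1.12 to 1.22 on dimt-1 RNAi.

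The question of the first comparison was whether knock-down of dimt-1 altered transcript levels of the families in the whole worm. With all 8 total RNA libraries no member was called by edgeR's quasi-likelihood test at a Benjamini-Hochberg adjusted p under 0.05, beside 0.0% of 15441 genes in all. At an unadjusted p under 0.05 stood 14 of the 110 members and 2504 of all genes. DESeq2 called 3 members (ugt-62, cyp-25A3 and ugt-66), beside 4.27% of all genes, and limma voom with library quality weights called 10, beside 10.4%. The median log2 difference, dimt-1 against control, was -0.21 over the cyp members and -0.09 over the ugt members, beside 0.01 over all genes tested, and 11 of 52 cyp and 25 of 58 ugt members lay above the median of all genes.

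With replicate 3 of dimt-1 RNAi left out, 12 of 110 members (10.9%) were called by edgeR, beside 15% of 15845 genes, so the share of members called was below that of all genes. Of the members 3 rose and 9 fell, against 6.99% of all genes rising and 8.03% falling. Leaving out any other replicate called no member. DESeq2 on the same libraries called 14 members, the 12 with ugt-24 and cyp-34A8, beside 17.9% of all genes. The calls in this paragraph therefore rest on leaving out a library that the label places in the dimt-1 group.

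The smallest p among the members without replicate 3 was that of ugt-62. Its total RNA level was 35.3, 32.4, 29.7 and 28.5 CPM on control RNAi and 11.8, 14.9, 29.9 and 15.1 CPM on dimt-1 RNAi. Replicates 1, 2 and 4 lay below every control library and replicate 3 was among the controls. The log2 difference was -0.81 ± 0.236 (SE, edgeR adjusted p = 0.149) with all libraries and -1.17 ± 0.133 (adjusted p = 2.01e-05) without replicate 3. Without replicate 3, ugt-53 and ugt-22, on other chromosomes, fell by 0.80 and by 0.61 on the log2 scale, and ugt-60, which like ugt-62 lies on chromosome III, fell by 1.04 (edgeR adjusted p = 0.00576, 0.00711 and 0.00516). For ugt-60 the levels were 7.31, 6.37, 6.31 and 8.20 CPM on control RNAi and 3.26, 3.25, 7.77 and 3.80 CPM on dimt-1 RNAi. For ugt-22 they were 29.04, 32.9, 30.8 and 30.4 CPM and 17.9, 17.3, 38.6 and 25.6 CPM, with replicate 3 above every control. The exons of ugt-22 overlap a gene on the other strand over 13.9% of their bases.

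The P450 genes that fell without replicate 3 were the cluster cyp-25A1, cyp-25A2 and cyp-25A3 and the single genes cyp-35A2 and cyp-29A2. For cyp-35A2 the levels were 27.4, 22.99, 23.5 and 22.2 CPM on control RNAi and 13.4, 12.4, 25.4 and 15.02 CPM on dimt-1 RNAi, a log2 difference of -0.54 ± 0.203 (SE, edgeR adjusted p = 0.228) with all libraries and -0.82 ± 0.134 (adjusted p = 0.000561) without replicate 3. The other measured cyp-35A genes, cyp-35A3 and cyp-35A5, are low, with at most 2.52 CPM in a control library, and were not called (log2 -1.32 and -1.20 without replicate 3, edgeR adjusted p = 0.228 and 0.212). Over the 6 cyp-35 members the median log2 difference was -0.49 with all libraries and -1.01 without replicate 3, with 1 of 6 called. The levels of cyp-29A2 were 8.70 to 12.7 CPM on control RNAi and 5.50, 7.76, 9.77 and 7.15 CPM on dimt-1 RNAi (log2 -0.57 with all libraries and -0.72 without replicate 3, edgeR adjusted p = 0.203 and 0.021).

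The 3 cyp-25A neighbours moved in one direction in replicates 1, 2 and 4. The level of cyp-25A3 was 12.7, 9.92, 10.5 and 10.9 CPM on control RNAi and 5.50, 6.88, 9.12 and 5.76 CPM on dimt-1 RNAi, so that all 4 dimt-1 libraries lay below the lowest control (log2 -0.69 ± 0.195, SE, edgeR adjusted p = 0.138 with all libraries). This gene was picked by its small p among the members, which favours such a gap. For cyp-25A2 the range was 13.8 to 20.5 CPM on control RNAi, with 9.01, 7.09, 16.9 and 11.9 CPM on dimt-1 RNAi, and for cyp-25A1 it was 12.8 to 20.7 CPM, with 7.83, 10.5, 19.3 and 11.4 CPM. Without replicate 3 the log2 differences were -0.87 for cyp-25A3, -0.84 for cyp-25A2 and -0.68 for cyp-25A1 (edgeR adjusted p = 0.00442, 0.00966 and 0.0255). The more distant copy cyp-25A4 had the opposite sign, 2.58 to 4.16 CPM on control RNAi and 5.54, 5.88, 3.89 and 5.45 CPM on dimt-1 RNAi (log2 0.61 ± 0.247, SE, edgeR adjusted p = 0.256), and was not called. All 4 genes hold repeated stretches of 100 bases, as given above, so their values are uncertain.

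Members with higher levels in the dimt-1 libraries were fewer. The level of ugt-66 was 2.21, 1.05, 0.536 and 1.18 CPM on control RNAi and 4.08, 3.61, 2.61 and 3.15 CPM on dimt-1 RNAi, and the groups did not overlap, replicate 3 included. This gene was likewise picked by its small p among the members, which favours such a gap. It had 86, 38, 26 and 46 counts in the control libraries. Its log2 difference was 1.43 ± 0.424 (SE, edgeR adjusted p = 0.152) with all libraries and 1.54 ± 0.441 (adjusted p = 0.0276) without replicate 3. The level of cyp-33C3 was 6.48 to 8.87 CPM on control RNAi and 17.5, 9.10, 8.03 and 12.9 CPM on dimt-1 RNAi (log2 0.82 without replicate 3, edgeR adjusted p = 0.0172). Its neighbours cyp-33C4, cyp-33C5 and cyp-33C7 had log2 differences of -0.22, 0.20 and -0.10 with all libraries and were not called. For ugt-41 the level was 10.9 to 14.9 CPM on control RNAi and 21.7, 14.8, 11.4 and 19.99 CPM on dimt-1 RNAi (log2 0.61 without replicate 3, edgeR adjusted p = 0.0222).

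**Figure D3:**
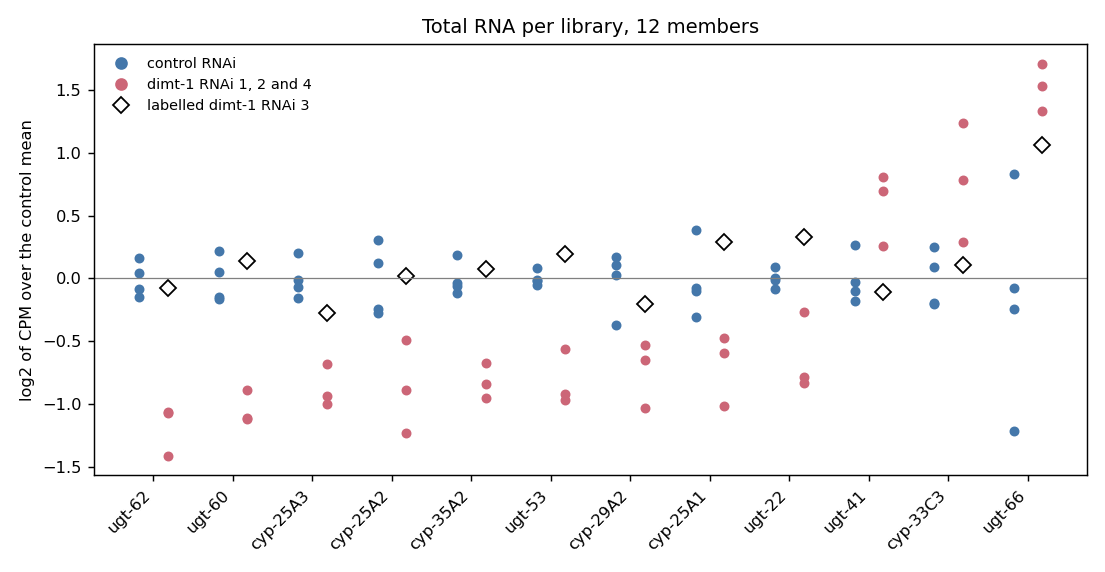
Total RNA level of the 12 members called without replicate 3, as log2 of each library's CPM over the mean of the 4 control libraries (vertical axis), with control libraries in blue, dimt-1 RNAi replicates 1, 2 and 4 in red and the library labelled dimt-1 RNAi replicate 3 as open diamonds. The members were chosen by the fit of the blue and red points, so the gap between these follows from the choice. For ugt-62 the diamond lies among the blue points, and for ugt-66 it lies above them.

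The 4 cyp members with the highest levels per kilobase and ugt-44 were not called without replicate 3. The log2 differences were -0.22 for cyp-31A2 (edgeR adjusted p = 0.0634), -0.18 for cyp-31A5 (adjusted p = 0.164), -0.09 for cyp-31A3 (adjusted p = 0.503), 0.02 for cyp-44A1 (adjusted p = 0.918) and 0.24 for ugt-44 (adjusted p = 0.219). Of the other genes with a known role, cyp-36A1, which acts downstream of EGL-9 and HIF-1, had 5.69 to 8.14 CPM on control RNAi and 5.53 to 9.96 CPM on dimt-1 RNAi, and the groups overlapped. Genes for P450 enzymes that act on polyunsaturated fatty acids were low: cyp-29A3 had 4.04 to 6.20 CPM on control RNAi and cyp-33E2 1.83 to 4.31 CPM. The reoxygenation gene cyp-13A12 had 0.443 to 0.927 CPM and cyp-35B1, a gene linked to DAF-16, 0.205 to 0.515 CPM. Of the further members on the list of named genes, cyp-14A5 had 5.84 to 10.1 CPM, cyp-33E1 2.55 to 4.69, cyp-42A1 1.61 to 2.41 and cyp-23A1 0 to 0.695 CPM on control RNAi, and edgeR called none of them in total RNA without replicate 3.

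By subfamily, without replicate 3, the median log2 difference was lowest in cyp-35 (-1.01, 6 members), followed by cyp-25 (-0.76, 4 members) and cyp-34 (-0.69, 5 members), against -0.49 in cyp-13 (7 members), -0.31 in cyp-14 (4 members), -0.29 in cyp-33 (11 members) and -0.18 in the 3 cyp-31 members. With all libraries the cyp-35 median was -0.49, as given above. Some cyp-35 members had few counts in total RNA, 6 to 28 per library for cyp-35B1 and 6 to 32 for cyp-35D1. The cyp-25 genes hold repeated stretches, so the order of the subfamilies is a description. Of these lists cyp-25 had 3 members called, all lower, cyp-35 had 1 lower, cyp-33 had 1 higher, and cyp-13, cyp-14, cyp-31 and cyp-34 had none. Among the ugt genes the median was -0.05 over the 34 members on chromosome V, with 1 called in each direction, and 0.07 over the 12 on chromosome IV, with 1 lower. All 3 ugt genes of chromosome III were called, ugt-60 and ugt-62 lower and ugt-66 higher.

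Marker genes of cell types were read in the same total RNA libraries. With all libraries no marker of any list was called. Without replicate 3 the muscle list had 2 of 10 higher, and the hypodermis list had 2 of 8 higher and 1 lower. The germline and oocyte list had 1 of 8 lower, and the lists of neurons and of the excretory cell and coelomocytes had none called. Of the 10 intestinal markers, 7 were lower in total RNA and 1 was higher without replicate 3, and their summed level was 21370 to 24650 CPM on control RNAi and 14970, 15330, 23500 and 18790 CPM on dimt-1 RNAi, with no marker at 0. The gene for the intestinal factor ELT-2 was at 10.4 CPM on control RNAi and 10.3 CPM on dimt-1 RNAi (log2 0.04 without replicate 3, edgeR adjusted p = 0.916). Of the 8 sperm markers 7 were higher without replicate 3, with a summed level of 50.9 to 62.9 CPM on control RNAi, with spe-9 at 0 in at least 1 library, and 240, 123, 52.7 and 269 CPM on dimt-1 RNAi. These are bulk samples, and the origin of these marker shifts was not tested. The part of these shifts in the members' values was not tested either. Among the cyp members the median log2 difference without replicate 3 was -0.63 over the 20 with TGATAA upstream and -0.27 over the 32 without it, and among the ugt members -0.17 over 36 and -0.09 over 22. With all libraries these medians were -0.343 and -0.165 for cyp and -0.094 and -0.086 for ugt.

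The genes that supply or control these enzymes were taken from a list of 27, and without replicate 3 of dimt-1 RNAi 5 were lower and 1 higher in total RNA, beside the 15% of all genes called. The reductase gene emb-8 was lower by 0.24 on the log2 scale (edgeR adjusted p = 0.0189), cytb-5.1, for a cytochrome b5, by 0.38 (adjusted p = 0.0128), and sqv-4, for the dehydrogenase that makes UDP-glucuronic acid, by 0.20 (adjusted p = 0.0449). Also lower were nhr-114, a nuclear receptor gene of intestine and germline, by 0.45, and mrp-5, an ABC transporter gene, by 0.35, while daf-16 was higher by 0.21 (adjusted p = 0.0241). None of the 27 was called with all libraries, where the median over the list was -0.01, beside 0.01 over all genes. The P450 gene daf-9, which carries no cyp symbol and makes dafachronic acid, had a mean of 0.331 CPM on control RNAi and 0.517 CPM on dimt-1 RNAi, too low for a difference to be detectable at this depth. Between TRAP and total RNA on control RNAi 4 of 26 genes of the list tested were called higher, cytb-5.1, cytb-5.2, hif-1 and mrp-1, beside 17.6% of all genes. Another 7 were called lower, beside 21.9% of all genes. Among the lower was emb-8, with a TMM-scaled log2 ratio of -0.66 (edgeR adjusted p = 0.0166), which was 0.40 below the median of all genes.

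In muscle TRAP, dimt-1 RNAi against control RNAi, 80 members passed the filter on low counts and none was called by edgeR, beside 0.0% of 12164 genes. An unadjusted p under 0.05 was reached by 2 of the 80 and by 976 of all genes, and DESeq2 and limma voom called no member, beside 1.36% and 1.05% of all genes. Without replicate 3 of dimt-1 RNAi edgeR called none of 85 members, beside 0.374% of 13118 genes, and DESeq2 called 3 (cyp-32B1, ugt-24 and ugt-62), beside 5.7% of all genes. The members with the smallest p were cyp-35A2, at 7.27, 5.56, 8.72 and 9.54 CPM on control RNAi and 2.25, 3.81, 2.96 and 4.84 CPM on dimt-1 RNAi (log2 -1.16 ± 0.441, SE, edgeR adjusted p = 0.458), and cyp-44A1, at 11.5, 7.49, 12.1 and 11.8 CPM and 17.9, 14.9, 13.7 and 17.1 CPM (log2 0.57 ± 0.249, adjusted p = 0.570). In neither did the groups overlap, but these 2 were picked by their p among the 80 tested, which favours such a gap. Of the ugt genes, ugt-62 had 7.78, 3.62, 3.53 and 5.71 CPM on control RNAi and 0.909, 1.63, 3.97 and 2.34 CPM on dimt-1 RNAi, where replicate 3 was again the highest (log2 -1.22 ± 0.657, SE, edgeR adjusted p = 0.701), and ugt-63 had 6.22 to 8.97 CPM and 2.46 to 6.23 CPM (log2 -0.70 ± 0.436, adjusted p = 0.769). The standard error of the log2 difference had a median of 1.28 over the cyp and 1.36 over the ugt members tested, against 0.37 over all genes tested.

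The place of the families in muscle was asked by comparing TRAP with total RNA. Muscle transcripts take a large share of the TRAP reads, and over all genes tested the log2 of TRAP over total RNA had a median of -0.26 with TMM scaling and -1.68 when scaled by library size only on control RNAi, and -0.14 and -1.56 on dimt-1 RNAi. Ratios are therefore given relative to the median of all genes. The calls, SE and adjusted p beside them belong to the TMM-scaled ratio tested against 0, before the median was subtracted. They do not test the distance from the median. On control RNAi this tested log2 ratio was -1.22 for cyp-44A1 and 1.09 for cyp-33A1. On control RNAi the median ratio of the 48 cyp members tested was 0.39 lower than that of all genes on the log2 scale and that of the 53 ugt members 0.51 lower, and 32 of the 101 members lay above the median of all genes. The members were chosen by their counts in total RNA, the denominator of the ratio, which favours low ratios among them, so these medians are a description. Of the 31 genes left out by that minimum 5 had more counts in the 8 TRAP than in the 8 total RNA libraries, cyp-13A11 with 72 against 4, ugt-3 with 110 against 26, cyp-34A1 with 88 against 34, ugt-35 with 41 against 12 and ugt-15 with 18 against 14. Members whose TRAP libraries were all at 0 stand at the low end. With these set to 3 counts in each library the medians did not move, but a median hardly depends on how low such values lie.

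On control RNAi edgeR called 21 of 101 members (20.8%), 1 higher and 20 lower in TRAP, beside 39.5% of 13778 genes, 17.6% higher and 21.9% lower. Among the 20 lower, 10 had no count in any of the 4 control TRAP libraries, namely cyp-13A12, cyp-32B1, cyp-33C2, cyp-37B1, ugt-9, ugt-14, ugt-20, ugt-24, ugt-32 and ugt-52. These 10 passed the filter on low counts through total RNA alone, and all 661 genes tested with no count in control TRAP were called lower. Over the 91 members with a count there, 11 (12.1%) were called, 1 higher and 10 lower, beside 36.4% of 13117 such genes, 18.5% higher and 17.9% lower. In the total RNA of control RNAi the 10 had low counts, 90 to 104 for cyp-32B1, 54 to 150 for ugt-9, 74 to 125 for ugt-20, 32 to 90 for ugt-52 and 16 to 68 for cyp-37B1. They had counts in some dimt-1 TRAP libraries, and the part of the sparse control libraries in these calls was not tested. With a minimum of 10 counts in every library 13 of 31 members were called, beside 56.9% of 8767 genes. Scaling by library size only called 39 members, none of them higher, beside 61.4% of all genes, 8.75% higher and 52.7% lower.

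The calls with counts in TRAP were led by the most abundant members. On the scale of that fit, cyp-44A1 had 41.5, 35.2, 42.02 and 39.0 CPM in total RNA and 18.2, 11.9, 19.2 and 18.6 CPM in TRAP, a log2 ratio 0.96 below the median of all genes (SE 0.173, edgeR adjusted p = 0.000304). For cyp-31A2 the values were 49.7, 50.3, 50.2 and 53.6 CPM in total RNA and 12.6, 19.98, 30.4 and 24.7 CPM in TRAP (0.96 below the median, SE 0.231, adjusted p = 0.00199). For ugt-62 they were 21.1, 19.3, 18.0 and 17.1 CPM and 12.2, 5.76, 5.61 and 9.01 CPM (0.95 below, SE 0.287, adjusted p = 0.00653). Also lower, by 0.51 to 1.33 relative to the median of all genes, were cyp-31A5, ugt-47, ugt-64, ugt-22, ugt-46 and ugt-12. The tenth was ugt-51, with 0, 0, 4 and 0 counts in TRAP and 72 to 172 counts in total RNA. The eggshell gene cyp-31A3 had a ratio 0.67 below the median and was not called (adjusted p = 0.0701), while with the replicate number as a block it was called lower (edgeR adjusted p = 0.0175). The summed level of the 8 germline and oocyte markers, genes such as rme-2 and oma-1, was 5246 to 5408 CPM in total RNA and 926 to 1156 CPM in TRAP on control RNAi, and all 8 were called lower in TRAP. Of the 10 intestinal markers 7 were called lower in TRAP, with ges-1 at 0 in at least 1 library. Relative to the median of all genes, the median log2 ratio was -0.7 over the germline and oocyte list and -0.31 over the intestinal list. Markers of other tissues thus had counts in TRAP. How much of the members' TRAP counts came from tissues other than muscle was not tested.

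The 1 member higher in TRAP was cyp-33A1, with 6.75, 5.09, 5.31 and 5.35 CPM in total RNA and 12.6, 18.8, 9.01 and 7.68 CPM in TRAP on control RNAi. Every TRAP library was above every total RNA library, a gap that its choice by the call favours. The log2 ratio of cyp-33A1 was 1.35 above the median of all genes (SE 0.352, edgeR adjusted p = 0.0309). On dimt-1 RNAi, in other libraries, its values were 6.13, 5.198, 4.96 and 5.73 CPM in total RNA and 10.6, 17.6, 9.12 and 11.01 CPM in TRAP (1.27 above the median, SE 0.284, adjusted p = 0.0101). A second member of the cyp-33 subfamily, cyp-33C8, was higher on dimt-1 RNAi, with 2.73, 4.18, 5.02 and 3.66 CPM in total RNA and 6.02, 8.44, 11.3 and 8.01 CPM in TRAP (1.25 above the median, SE 0.348, adjusted p = 0.0329), and on control RNAi it had 10.9, 3.55, 7.14 and 11.97 CPM in TRAP against 3.19 to 4.70 CPM in total RNA (1.25 above, adjusted p = 0.130), where the groups overlapped. Scaled by library size only, both log2 ratios were below 0 under both RNAi treatments and not called, while relative to the median of all genes cyp-33A1 was 1.30 and cyp-33C8 1.26 higher on control RNAi. With the replicate number as a block, edgeR gave cyp-33A1 an adjusted p of 0.107 on control RNAi and 0.0281 on dimt-1 RNAi. For cyp-33C8 on dimt-1 RNAi it gave 0.0506, so only the dimt-1 call of cyp-33A1 remained.

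On dimt-1 RNAi 6 of 98 members (6.12%) were called, 2 higher and 4 lower in TRAP, beside 28.2% of 14785 genes, 17.2% higher and 10.9% lower. Scaled by library size only, the split was 0 higher and 52 lower, beside 59.9% of all genes, 8.13% higher and 51.7% lower. Among the 96 members tested under both RNAi treatments 5 were called in both, cyp-31A2, cyp-31A5, cyp-33A1, cyp-44A1 and ugt-62, which are 83.3% of the 6 calls on dimt-1 RNAi and 27.8% of the 18 on control RNAi. Over all genes tested in both, 83.7% of the calls on dimt-1 RNAi and 64.7% of those on control RNAi were shared. Relative to the median of all genes the log2 ratio of cyp-31A2 was -0.51, that of cyp-44A1 -0.43, that of cyp-31A5 -0.42 and that of ugt-62 -1.44. Without replicate 3, 16 of 99 members were called, 2 higher and 14 lower, beside 33.9% of 15153 genes, 19.5% higher and 14.4% lower. Leaving out replicate 1, 2 or 4 instead left 3, 1 and 3 members called, and the share of all genes is not given for these fits.

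**Figure D4:**
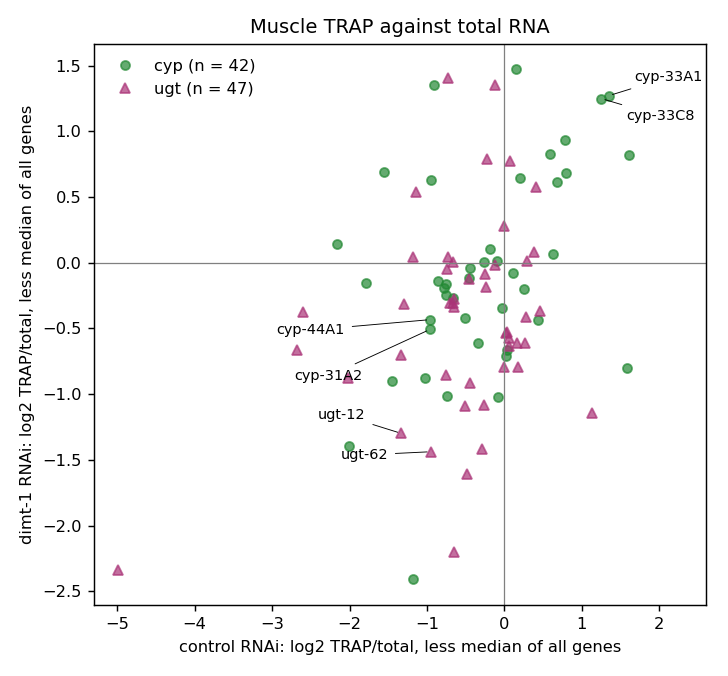
Log2 ratio of muscle TRAP to total RNA, less the median over all genes tested, on control RNAi (horizontal axis) and on dimt-1 RNAi (vertical axis) for the 89 members tested in both with no group at 0 throughout, with cyp as green circles and ugt as purple triangles. The 2 axes share no library, and cyp-33A1 and cyp-33C8 lie above 1 on both while ugt-62, ugt-12, cyp-31A2 and cyp-44A1 lie below 0 on both.

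Members take part in these comparisons with fewer counts than most genes. In the TRAP against total RNA fit on control RNAi the median of the mean counts per library was 94.8 for the cyp and 153 for the ugt members tested, against 452 for all genes tested, and the median standard error of the log2 ratio was 1.30 and 1.15 against 0.39. The part of the lower counts in the share of members called was not tested.

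The change in the ratio of TRAP to total RNA with dimt-1 RNAi, the study's translation efficiency, was tested as the interaction over all 16 libraries. None of 110 members was called by edgeR, beside 0.0% of 15897 genes, with 14 members and 2183 genes at an unadjusted p under 0.05. DESeq2 called 5 members, cyp-32B1, cyp-37B1, ugt-9, ugt-20 and ugt-24, beside 2.14% of all genes, and limma voom called none, beside 0.0%. All 5 had no count in any of the 4 control TRAP libraries, so no fold is given. In TRAP on dimt-1 RNAi cyp-32B1 had 60, 18, 0 and 32 counts, cyp-37B1 44, 6, 28 and 6, ugt-9 4, 4, 0 and 10, ugt-20 10, 40, 0 and 10, and ugt-24 13, 70, 0 and 49, and 4 of the 5 were at 0 in the sparse replicate 3. Without replicate 3 edgeR called 1 member, cyp-32B1, beside 0.257% of 16313 genes. The median interaction was 0.39 over the cyp and 0.44 over the ugt members, beside 0.16 over all genes. Of the 110 members 18 had no count in any control TRAP library, and the part of these zeros in the result was not tested.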

How the data were processed

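Raw read counts per gene were used as deposited by the authors, for 16 libraries of TruSeq Stranded poly(A) RNA. The submitters' notes name STAR 2.7.2b. How the muscle libraries were counted, with which annotation and strand setting, is not given in the sources used here. Between 78.1 and 90.0% of counts from 1 to 20 were even, so a count of 2 may stand for 1 read pair. Groups came from the sample labels, which call the replicates biological, and 0 columns of values were left unused. Libraries held 34794250 to 49782576 counts.

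Counts were filtered with filterByExpr, scaled by TMM and tested with edgeR 4.0.16 (quasi-likelihood, R 4.3.3) over all genes, with Benjamini-Hochberg adjustment and calls at 0.05. DESeq2 1.42.0, limma 3.58.1 (voom with quality weights), other scalings and filters, a replicate block and leaving out each replicate were alternatives. The fit was tested on simulated data with the same spread for all genes and without the missing low counts of the sparse TRAP libraries. That test therefore does not cover the fit in those libraries. CPM within a fraction use TMM over its 8 libraries, and TRAP against total RNA uses the scale of that fit. Levels per kilobase divide by the length of all exons. A group at 0 was set to 3 counts per library where a bound was needed. Summaries used Python 3.11.15, numpy 2.4.6 and pandas 2.3.3.

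The members and lists were chosen with earlier results of these data known. Values per library were given for the 6 highest members of each family, for up to 4 called members per family, direction and comparison with the smallest p (the 2 with the smallest p where none was called), for the 3 highest and 3 lowest TRAP ratios without overlap, and for members with a known role. The 12 members called without replicate 3 were added after their values were seen, as was DESeq2 without that replicate. The libraries of the germline experiment were not analysed here.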

Additional observations from a re-analysis of the deposited data

Results flagged for a closer look

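Of 44 tests for a library far from the other 3 of its group, 3 passed Dixon's 95% critical value, where chance flags about 1 in 20. The summed level of the 3 cyp-31A genes in TRAP on control RNAi was 19.4 CPM in replicate 1 and 41.6, 44.9 and 43.2 CPM in the others. The number of members at 0 in TRAP on dimt-1 RNAi was 49 in replicate 3 and 7, 13 and 13 in the others. The level of ugt-60 in total RNA on dimt-1 RNAi was 7.77 CPM in replicate 3 and 3.26, 3.25 and 3.80 CPM in the others.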

How the results depend on the processing

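In total RNA, where edgeR called 0 members, DESeq2 called 3, no filter 1 and limma voom 10, leaving out each replicate called 0 to 12, and DESeq2 without dimt-1 replicate 3 called 14. In TRAP, dimt-1 against control, 0 members were called under each left-out replicate, and DESeq2 without dimt-1 replicate 3 called 3. For TRAP against total RNA on control RNAi, 21 calls became 13 with 10 counts in every library, 39 with library size only, 36 with limma voom, and 17 to 26 without single replicates. On dimt-1 RNAi, 6 calls became 10, 52 and 16 under the same settings, and 1 to 16 without single replicates. Among all genes limma voom called 6267 of 13778 on control RNAi and 5135 of 14785 on dimt-1 RNAi. Library size only called 61.4% and 59.9% of all genes. For the replicate block, and for left-out replicates other than dimt-1 replicate 3, no share of all genes is given. For the interaction, DESeq2 called 5 and leaving out each replicate 0 to 1. The causes were not tested, except that the 10-count minimum tests fewer members by its construction. With the replicate number as a block, 11 members were called on control RNAi and 7 on dimt-1 RNAi, and 0 in the other 3 comparisons. With it edgeR gave cyp-33A1 an adjusted p of 0.107 on control and 0.0281 on dimt-1 RNAi, cyp-33C8 0.0506 on dimt-1 RNAi and cyp-31A3 0.0175 on control RNAi. The numbers were not taken to pair the libraries: deviations of same-numbered libraries correlated at -0.01 to 0.018 on control RNAi and 0.03 to 0.258 on dimt-1 RNAi, where every library correlated best with its own number. Over the values of single members 425 settings left the direction and call as they were, 39 gained and 37 lost a call, and none reversed. Of the family medians 117 stayed within the spread and 21 moved. A minimum sum of 1 gave 71 cyp and 67 ugt members and one of 1000 gave 29 and 36. The level of cyp-31A5 per kilobase was 44.3 CPM with the longest transcript. In TRAP against total RNA on control RNAi the median standard error of the log2 ratio was 1.30 over the cyp and 1.15 over the ugt members, against 0.39 over all genes.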
